A study of Mus musculus with 46 samples.

Results

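The regions described here are 365 stretches of the mouse genome that carried histone H3 acetylated at lysine 27 (H3K27ac) in microglia of mice on a cuprizone diet. They were chosen by overlap alone. Each is a region of the first Ki67-negative Cuprizone list that shared at least 1 bp with a region in the other 3 Cuprizone lists and with none in the 2 adult and 4 postnatal day 8 (PND8) lists. They made up 1.52% of the 24082 regions of that starting list and covered 317.0 kb. The H3K27ac values of the Cuprizone, adult and PND8 lists therefore selected the set and are given below as a description, without a test.

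The study profiled sorted brain microglia of male C57BL/6 mice in states that differ in proliferation. Ki67, a nuclear protein of dividing cells, was used to sort Ki67-positive from Ki67-negative cells. For H3K27ac all mice were wild type, and Ki67 was read with an antibody on fixed cells. Cuprizone mice were 90 days old and had eaten the diet for 4 weeks, with 2 Ki67-negative and 2 Ki67-positive libraries. Untreated adults were 60 and 65 days old, with 1 library at each age and cells labelled Ki67-negative. Untreated PND8 pups gave 2 Ki67-negative and 2 Ki67-positive libraries. Repopulating microglia came from 90-day-old mice that ate PLX5622, an inhibitor of the CSF1 receptor that depletes microglia, from day 70 for 17 days and then recovered for 3 days, with 2 Ki67-positive libraries. RNA came from untreated wild-type adults of 90 days and from Ki67-rfp reporter mice at PND8 or after the same PLX5622 course begun at day 55 and ended at day 75, with 2 libraries in each of the 5 groups. Open chromatin (ATAC) was measured in 1 library each of adult (80 days), PND8 Ki67-positive and repopulating Ki67-positive cells (75 days). The ATAC labels give the genotype as wild type, while the titles of the PND8 and repopulating libraries name Ki67-rfp. H3K4me3 came from 2 libraries of untreated wild-type adults of 75 days. RNA polymerase II (Rpb2) came from 2 libraries of untreated wild-type adults, labelled 60 and 65 days old, and 1 of wild-type PND8 Ki67-positive cells. The names of the repopulation H3K27ac and ATAC files give another age than the labels, which are followed here. The headers of the adult H3K27ac lists name a vehicle treatment that the labels do not mention. No RNA or ATAC library of cuprizone microglia was analysed here, so the RNA below comes from other states than the one that selected the regions.

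H3K27ac is deposited by the acetyltransferases p300 and CBP at active enhancers and promoters, and a region that gains it is usually taken to be in use in that cell type and state. Cuprizone is a copper chelator that kills oligodendrocytes, and microglia in the demyelinated tissue divide, engulf myelin debris and turn on genes of phagocytosis, lipid handling and tissue repair. Many of those genes belong to the disease-associated microglia programme.

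Most of the regions lay away from promoters, and their sequence is not shown here, but 16 regions overlapped the 250 bases before a RefSeq gene start (GRCm38.p6, which has the coordinates of mm10). These 16 regions, not all of them among the 16 near a start in the count table (below), touched 20 such windows of 18 genes, among 32851 windows in the RefSeq table. Those of Cybb, Fgf2, Lgals3 and Chst2 are shown because each lies at the start of a gene whose RNA differed between repopulating and adult microglia (below). Each is written 5′ to 3′ on the strand of the gene and ends at the base before its start, with motif matches in capitals.
Cybb, chrX:9469325-9469574, minus strand: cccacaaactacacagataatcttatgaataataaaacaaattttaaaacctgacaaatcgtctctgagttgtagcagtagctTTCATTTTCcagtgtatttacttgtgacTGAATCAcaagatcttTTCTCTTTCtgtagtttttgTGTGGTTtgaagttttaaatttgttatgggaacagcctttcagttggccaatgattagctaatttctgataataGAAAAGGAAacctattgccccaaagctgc
Fgf2, chr3:37348403-37348652, plus strand: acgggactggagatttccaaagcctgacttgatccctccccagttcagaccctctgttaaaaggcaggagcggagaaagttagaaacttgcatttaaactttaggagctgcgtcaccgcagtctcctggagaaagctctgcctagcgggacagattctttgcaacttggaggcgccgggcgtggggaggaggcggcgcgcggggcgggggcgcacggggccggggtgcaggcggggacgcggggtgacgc
Lgals3, chr14:47373610-47373859, plus strand: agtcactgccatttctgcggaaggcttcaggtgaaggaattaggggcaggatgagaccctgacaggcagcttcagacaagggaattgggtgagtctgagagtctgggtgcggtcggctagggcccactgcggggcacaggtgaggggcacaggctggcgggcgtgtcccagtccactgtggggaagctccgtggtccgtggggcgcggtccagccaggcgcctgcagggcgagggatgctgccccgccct
Chst2, chr9:95407271-95407520, minus strand: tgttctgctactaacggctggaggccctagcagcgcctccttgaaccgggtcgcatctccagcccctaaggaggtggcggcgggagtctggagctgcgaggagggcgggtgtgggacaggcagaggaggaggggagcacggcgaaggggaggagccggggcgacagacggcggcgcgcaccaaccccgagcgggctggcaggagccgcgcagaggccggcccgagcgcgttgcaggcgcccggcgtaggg
The Cybb and Fgf2 windows lay wholly inside their regions, the Chst2 window with 149 bases and the Lgals3 window with 96 bases. The capitals in the Cybb window mark 3 matches to the IRF motif GAAANNGAA, which start 167, 123 and 29 bases before the gene start, 1 match to the AP-1 motif TGANTCA at 139 bases and 1 match to the RUNX motif TGTGGTT at 103 bases. Both strands were searched. Over all 32851 windows the IRF motif occurred in 7.13%, the AP-1 motif in 6.75% and the RUNX motif in 4.40%. Among the 20 overlapped windows the IRF, AP-1 and RUNX motifs were each found in 2. The C/EBP motif TTGCNNAA occurred in 4 of the 20 (9.56% of all windows), the NF-kB motif GGGNNTTCC in 3 (4.98%) and the MAF motif TGCTGAC in 1 (3.81%). The motif AGGTCA, which is only a part of an LXR site, occurred in 4 (14.0%). The ETS motif GAGGAAGT of the PU.1 kind (2.44%), the E-box CACGTG (6.02%) and the MEF2 motif CTATTTATA (0.387%) were in none of these windows. A match is a description of letters, and overlapping windows were counted separately, those of Stra6l, of Tank, and of Dennd2d with 2010016I18Rik. The Tank windows share 1 NF-kB match. Dennd2d and 2010016I18Rik share 1 AGGTCA match, read on opposite strands. The Fgf2, Lgals3 and Chst2 windows held none of the 10 motifs.

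The regions were narrow and weak in the list that defined them. Their median was 27 tags, on the authors' scale of 10000000 tags per library (range 8.0 to 277.8), where the whole starting list had a median of 130.9. Their median width was 759 bp against 1536 bp, and 112 of the 365 (30.7%) had the smallest width of the list, 500 bp, against 10.2% of all its regions. In the other Cuprizone lists the regions lying over the same places were wider and held more tags. The medians were 69.1 tags and 1428 bp in the second Ki67-negative list, 61.0 tags and 1238 bp in the first Ki67-positive list, and 89.6 tags and 1666 bp in the second. Tags of a wide and a narrow region are not a like-for-like comparison, so the tags below are given as each list has them, and differences between lists were not tested.

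The selection left out most of what was shared by the Cuprizone lists. Of 20504 starting regions found in all 4 Cuprizone lists, 20139 also met at least 1 adult or PND8 region. Of the 894 starting regions that met none, 365 were in all 4 Cuprizone lists, 222 in 3, 183 in 2 and 124 in the starting list alone. Just outside the rule, 282 regions met exactly 1 of the 6 excluded lists, with an overlap as small as 3 bp. Among these, 96 met only the second adult list and 11 only the first, which had the lowest share of tags in regions (32.6%, against 45.5% to 58.3% in the other excluded lists and 51.9% to 69.7% in the Cuprizone lists). The part of that difference in the selection was not tested. Just inside, 1 bp was the smallest overlap with a required list. A region absent from a list fell below the calling threshold of the authors there, which does not show that the mark was absent.

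The regions lay at very different distances from adult or PND8 H3K27ac. The gap had a median of 7441 bp and ran from 18 to 387056 bp, and 60 regions lay within 1 kb of an adult or PND8 region. For 58 regions at least 1 of the overlapped Cuprizone regions was itself wide enough to reach an adult or PND8 region, with a median gap of 457.5 bp. At these places a neighbouring part of the same Cuprizone stretch was thus listed in adult or PND8 cells too. The other 307 (84.1%) stood alone, with a median gap of 11198 bp.

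**Figure D1:**
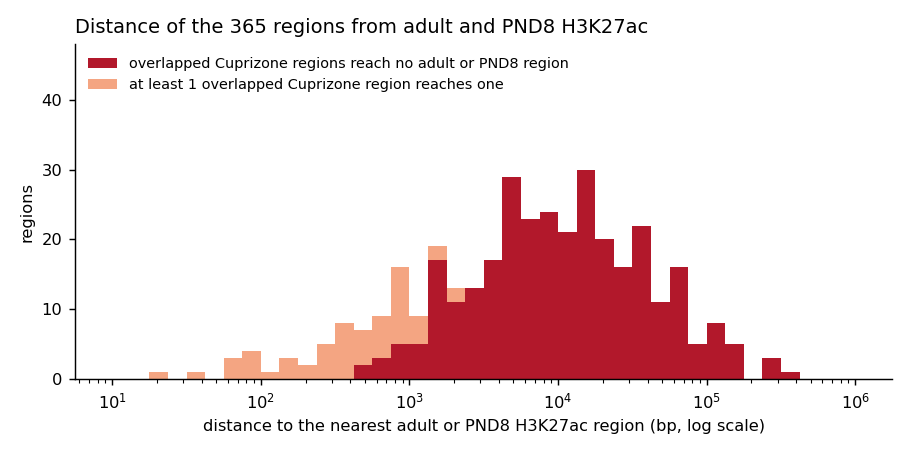
Number of the 365 regions (vertical axis) by distance in bp to the nearest adult or PND8 H3K27ac region (horizontal axis, log scale). The 58 regions in light red are those where an overlapped Cuprizone region reaches an adult or PND8 region, and they lie at the short end, while the 307 in dark red extend to 387056 bp.

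The 10 regions with the lowest summed rank of tags over the 4 Cuprizone lists were mostly joined in this way. They lay nearest to Galnt7, Cd9, Vgll4, Actr3b, Wipf1, Tns3, Rassf3, Psen2, Taf4 and Xylt1. Of these 10, 8 lay within 1 kb of an adult or PND8 region and 7 were joined to one in at least 1 Cuprizone list. The region inside Galnt7, a glycosyltransferase that adds sugars to mucin-type proteins (chr8:57587412-57589542, mm10), held 245.4 and 882.1 tags in the Ki67-negative lists and 941.3 and 1010.4 in the Ki67-positive lists. The region inside Cd9, a tetraspanin of the disease-associated programme (chr6:125483945-125484720), held 108.9 and 762.0 tags in the Ki67-negative lists and 1077.9 and 1121.1 in the Ki67-positive lists. In both, the starting list gave the lowest value, and in each of the other 3 lists the overlapped region was one that reached an adult or PND8 region.

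Among the 10, Tns3, Rassf3 and Xylt1 stood alone. The region inside Tns3, a focal adhesion protein (chr11:8568973-8570541), held 237.9 and 356.3 tags in the Ki67-negative lists and 321.0 and 358.1 in the Ki67-positive lists, 801 bp from the nearest adult or PND8 region. The region upstream of Rassf3 (chr10:121493331-121495069) held 277.8, 318.9, 285.6 and 364.9 tags in the same order, 672 bp from one. The region inside Xylt1, the xylosyltransferase that starts glycosaminoglycan chains on proteoglycans (chr7:117413559-117415707), held 156.9, 262.4, 324.3 and 389.2 tags and was 12388 bp from one. It was 12.8 times the input, a value of the authors.

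Xylt1 also had the group with the most regions. Within 100 kb of its start lay 4 of them, spread over 75105 bp, and 1 of the 4 covered the start itself (chr7:117380577-117382046, with 55.0, 154.9, 111.6 and 246.8 tags). Another lay further inside the gene, 140412 bp from its start. In all, 69 regions fell into 30 groups with gaps of at most 50 kb. Besides that of Xylt1, 7 groups held 3 regions, among them those at Lsm14a, Agap1, Iqsec1, Sh3kbp1 and Bhlhe40, and both Fgf2 and Tlr2 had 2 regions. In the Lsm14a and Sh3kbp1 groups all 3 regions were also in both repopulation lists.

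The repopulation lists played no part in the selection. Of the 365 regions, 132 (36.2%) met a region in both repopulating Ki67-positive lists, 79 in 1 of them and 154 (42.2%) in neither. Over all regions of the starting list 82.5% were in both. A set built the opposite way from PND8 (346 regions in all 4 PND8 lists and no adult or Cuprizone list) met both repopulation lists in 37 cases (10.7%) and neither in 66.5%. Of the 186 regions with at least the median number of tags 85 (45.7%) were in both, and of the other 179 regions 47 (26.3%). The 2 repopulation lists shared the header code of the second Cuprizone libraries in 1 case and of the second adult and PND8 libraries in the other. Shares of regions were not tested, since regions of 1 library are not replicates.

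Recurrence was counted separately for regions standing alone. Of the 307 regions standing alone, 109 (35.5%) were in both repopulation lists, against 23 of 58 joined regions (39.7%). For 108 of those 109, the overlapped repopulation regions also reached no adult or PND8 region, so the same places carried a separate acetylated region in both conditions. For the joined regions this held in 4 of 23.

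The recurrent regions with the lowest summed rank lay near Galnt7, Cd9, Wipf1, Tns3, Taf4, Xylt1, Kcnk6, Tlr2, Fgfr1op and Nvl. The Galnt7 region held 424.2 and 691.7 tags in the repopulation lists and the Cd9 region 982.9 and 1160.9. The Tns3 region held 196.6 and 179.3 tags and the Xylt1 region 66.3 and 50.6. The region upstream of Tlr2, which encodes a receptor for bacterial lipoproteins (chr3:83844693-83845193), varied widely, with 74 and 188.7 tags in the Ki67-negative Cuprizone lists, 461.5 and 1616.3 in the Ki67-positive ones, and 114.1 and 1860.0 in repopulation. The region inside Nvl, a nuclear ATPase (chr1:181124897-181127449), was more even, with 104.4, 214.0, 241.6 and 411.8 tags in cuprizone and 275.5 and 390.2 in repopulation, 15995 bp from any adult or PND8 region.

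**Figure D2:**
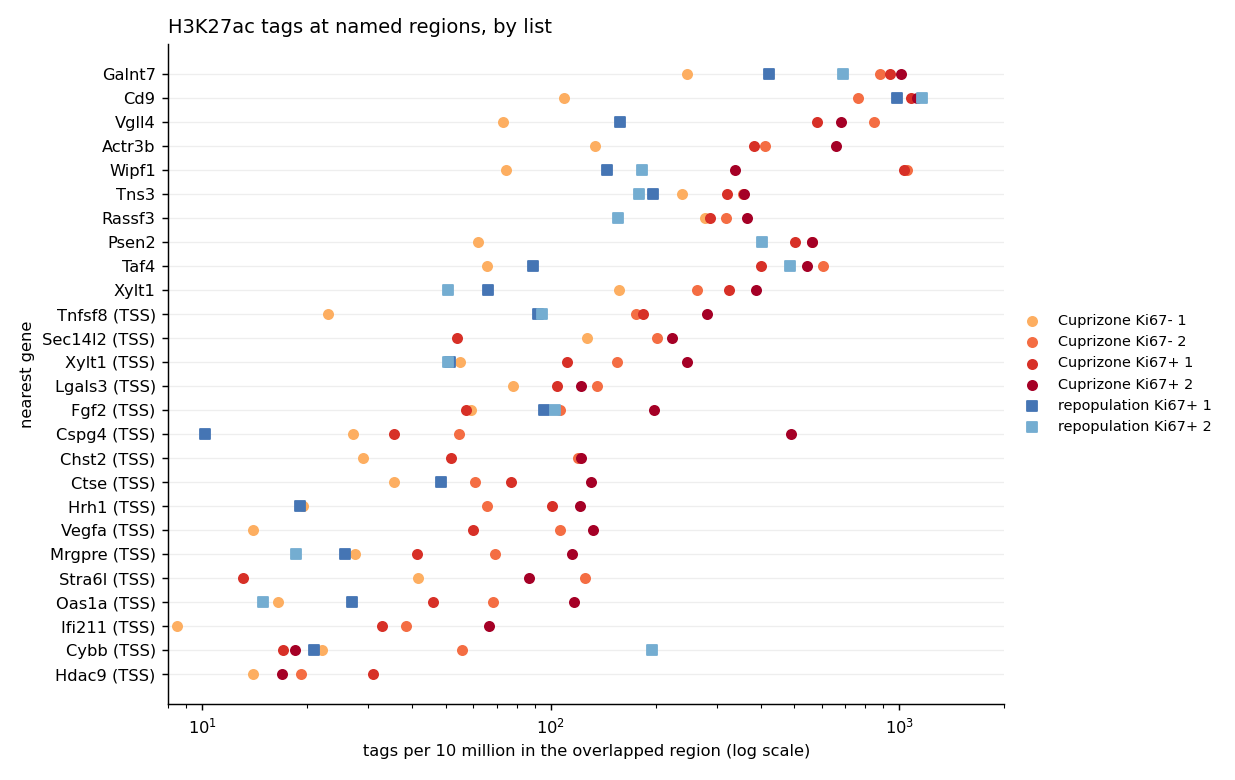
H3K27ac tags on a scale of 10000000 tags per library (horizontal axis, log scale) in the overlapped region of each list, for the 10 regions of lowest summed rank and the regions within 1 kb of a gene start (TSS), named by nearest gene. Circles are the 4 Cuprizone libraries and squares the 2 repopulation libraries, and a missing square means that the list held no region there, as at Lgals3, Vegfa and Chst2.

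Open chromatin at the regions was more often found in repopulation than at PND8 or in the adult. An ATAC site of repopulating cells lay in 217 of the 365 regions (59.5%, against 89.3% of all starting regions), one of adult cells in 137 (37.5%, against 88.1%) and one of PND8 cells in 121 (33.2%, against 84.8%). In 65 regions the site was listed in repopulation alone, in 79 in all 3 libraries, and 126 (34.5%) held no site in any, against 7.94% of all starting regions. The reversed PND8 set had the other order, with 71.4% open at PND8, 66.8% in repopulation and 54.0% in the adult. The repopulation list was also the longest, with 95411 sites against 75296 at PND8 and 71642 in the adult. Each state had 1 ATAC library, so the differences have no replicate check, and the part of list length in them was not tested.

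Open sites were more frequent in recurrent regions, in each ATAC library. Of the regions in both repopulation H3K27ac lists 74.2% held a repopulation ATAC site, of those in 1 list 55.7%, and of those in neither 48.7%. The region 16583 bp upstream of Alcam, a cell adhesion molecule (chr16:52469664-52471549), is an example of a recurrent region. It held 77.0 and 184.2 H3K27ac tags in the Ki67-negative Cuprizone lists, 196.3 and 214.1 in the Ki67-positive ones and 356.7 and 580.7 in repopulation. Its ATAC site had 7.49 tags in the adult, 39.3 at PND8 and 179.4 in repopulation, and no adult or PND8 H3K27ac region lay within 387056 bp, the widest gap of all the regions.

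**Figure D3:**
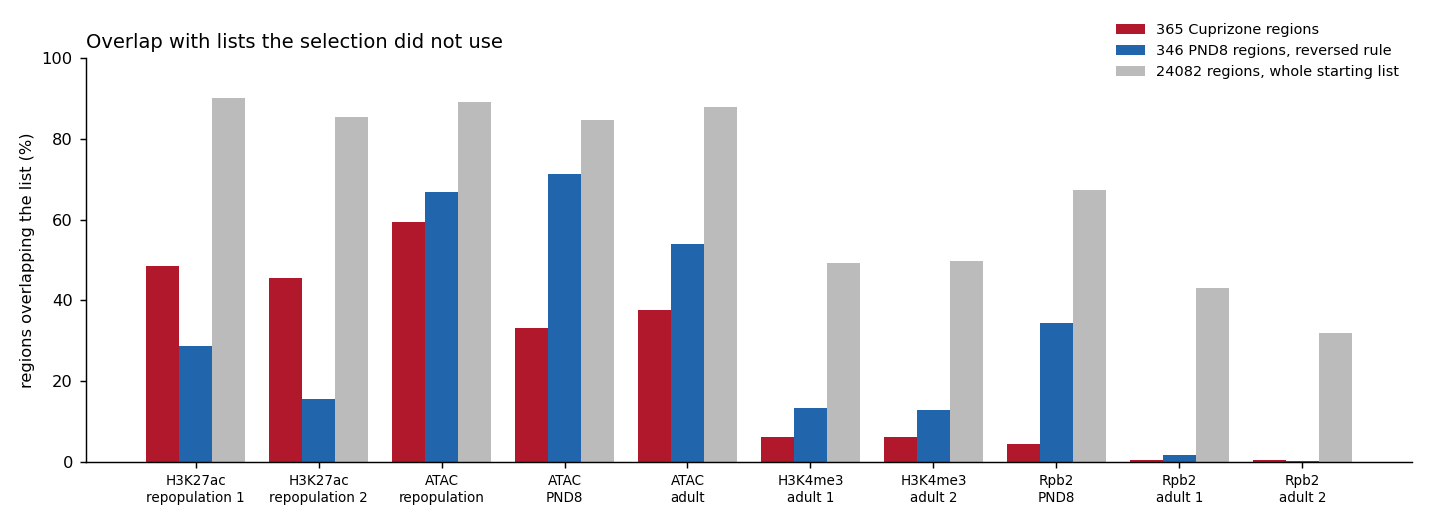
Share of regions (percent, vertical axis) that overlap each list the selection did not use (horizontal axis), for the 365 Cuprizone regions in red, the 346 PND8 regions of the reversed rule in blue and all 24082 regions of the starting list in grey. The red bars are below the grey ones in every list and exceed the blue ones for H3K27ac in repopulation.

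Few of the regions were promoters in the adult. Both adult lists of H3K4me3, a mark of active promoters, met 17 of them (4.66%, against 47.0% of all starting regions). RNA polymerase II (Rpb2) was listed at 2 regions in each adult list and at 16 (4.38%) at PND8, against 67.3% of the starting list at PND8. A gene start lay within 1 kb of 16 regions (4.38%, against 34.3%), within 1 to 10 kb of 77 and within 10 to 100 kb of 202. For 70 regions the nearest start was over 100 kb away. Gene bodies held 230 regions (63.0%, against 71.1%).

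The 295 regions with a start within 100 kb were linked to 271 genes by the nearest start in the count table. The link is one of position and was not tested as regulation. Of the 30 listed genes of the disease-associated programme, 5 were linked (Cd9, Lgals3, Fabp5, Ank and Timp2), where 271 of the 20999 genes of the table (1.29%) were. These shares are not like for like, since 28 of the 30 but only 10274 of the 20999 were nearest to some region of the starting list. None of the 20 homeostatic microglia genes was linked, and all 20 were nearest to some region of the starting list. The growth factor and matrix list had 3 linked genes (Vegfa, Timp2 and Lgals3), the lipid list Fabp5 and Acaca, the interferon list Oas1a and Usp18, the transcription factor list Bhlhe40 and Epas1, and the lysosome list Ctsh. The cell cycle list (30 genes), the antigen presentation list (19 genes) and the cytokine and chemokine list (31 genes) had none. With 1.29% of all genes linked, a count of 0 in lists this short, the homeostatic list included, does not show a lack.

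As a check of the cell type, the whole starting list was nearest to all 20 homeostatic microglia genes, 1 of 11 neuron markers, 1 of 8 erythroid markers, 4 of 10 astrocyte markers, 6 of 15 markers of the oligodendrocyte lineage, 5 of 10 endothelial, 7 of 11 border macrophage, 5 of 16 monocyte or neutrophil and 7 of 15 lymphocyte markers. Among these other-cell markers the 365 regions were linked to Cspg4, a proteoglycan of oligodendrocyte precursors and pericytes, and Slc1a3, the astrocyte glutamate transporter GLAST. The region at the start of Cspg4 (chr9:56864994-56866286) had 27, 54.5 and 35.4 tags in 3 Cuprizone lists and 487.8 in the second Ki67-positive list, and 10.2 tags in 1 repopulation list. A second region inside the gene had 14.0, 60.1, 76.8 and 82.8 tags. The Slc1a3 region had 18.5, 41.9, 38.7 and 47.5 tags and was in no repopulation list. The part of other cells in these regions was not tested.

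The disease-associated genes differed in where their regions recurred. The Cd9 and Ank regions were in both repopulation lists, and those of Lgals3, Fabp5 and Timp2 in neither. Ank, which exports pyrophosphate and ATP, had a region inside the gene (chr15:27537267-27538058) with 26 and 84.8 tags in the Ki67-negative Cuprizone lists, 75.5 and 128.7 in the Ki67-positive ones and 35.3 and 41.3 in repopulation. Lgals3, encoding the lectin galectin-3, had a region over its start (chr14:47373764-47375251) with 78.0, 135.8, 104.4 and 121.8 tags and a second one inside the neighbouring gene Dlgap5, 21558 bp from the Lgals3 start, with 9.99, 76.2, 15.8 and 51.2 tags. The start of Lgals3 was listed as open in all 3 ATAC libraries, at 33.0 tags in the adult, 24.4 at PND8 and 31.4 in repopulation. The region 10168 bp from the start of Fabp5, a fatty acid carrier, had 42.5, 123.1, 182.5 and 272.1 tags and held no ATAC site, and that of Timp2, an inhibitor of matrix metalloproteinases, was a joined region with 15, 158.0, 20.3 and 198.3 tags.

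The other listed regions stood alone. The region 635 bp inside Vegfa, the angiogenic growth factor (chr17:46031111-46031742), had 14.0, 106.0, 59.7 and 132.4 tags, was 78799 bp from the nearest adult or PND8 region and was absent from both repopulation lists. That of Acaca, the enzyme that commits acetyl-CoA to fatty acid synthesis, had 59.0, 136.3, 130 and 219.4 tags and was also absent from repopulation. That of Oas1a, an interferon-induced antiviral synthetase (chr5:120906842-120907471), had 16.5, 68.1, 46 and 116.5 tags in cuprizone and 26.9 and 14.9 in repopulation, with no adult or PND8 region within 93588 bp. The Usp18 region (20.5, 61.6, 26.3 and 45.4 tags) and the Ctsh region (8.99, 45.4, 44.6 and 41.7 tags) were in no repopulation list. The regions linked to Bhlhe40, a repressor of the basic helix-loop-helix family (13, 58.0, 28.9 and 111.3 tags), and Epas1, the hypoxia factor HIF-2 alpha (23.0, 37.8, 69.6 and 43.2 tags), were in both.

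The RNA libraries held 6865903 to 10287876 counts in genes, and values below are CPM, the counts scaled by library total and TMM factor. Of the 271 linked genes, 228 passed the filter on low counts among 12230 genes tested, and 43 did not. In repopulating Ki67-positive against adult cells 76 of the 228 were higher (33.3%, against 23.9% of all genes tested) and 58 lower (25.4%, against 21.0%), by edgeR's quasi-likelihood test at an adjusted p of 0.05. In repopulating Ki67-negative cells 69 were higher (30.3%, against 21.5%) and 47 lower (20.6%, against 17.6%). The count of 47 was lower whenever an adult or a repopulating Ki67-negative library was left out. The share of all genes called lower also fell in each of those fits, so the drop was not particular to linked genes. Such a fit leaves a group without a replicate, so its counts are not given here.

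At PND8 the shares lay the other way. Against adult, 44 linked genes were higher in the Ki67-positive pup cells (19.3%, against 25.1% of all genes) and 84 were lower (36.8%, against 24.3%). The Ki67-negative pup cells had 41 higher (18%, against 25.4%) and 73 lower (32.0%, against 21.4%). With a fold of at least 2 as well, 39 of the 228 were higher in repopulating Ki67-positive cells and 9 lower (all genes 10.0% and 4.91%), and 38 and 5 in repopulating Ki67-negative cells (8.93% and 3.65%). At PND8 these counts were 15 and 25 in Ki67-positive cells (all genes 9.63% and 7.36%) and 20 and 22 in Ki67-negative cells (10.2% and 5.43%). The median log2 fold change of the linked genes was -0.10 at PND8 and -0.02 in repopulation for Ki67-positive cells, with all genes at 0.00 and -0.01. All 4 comparisons share the same 2 adult libraries, which were wild type. In the command line in the count table's header their library names end in a code that no other library has. Genotype and this code cannot be told apart from the adult group. In bulk RNA, fewer cells of a type and less RNA per cell cannot be told apart either.

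**Figure D4:**
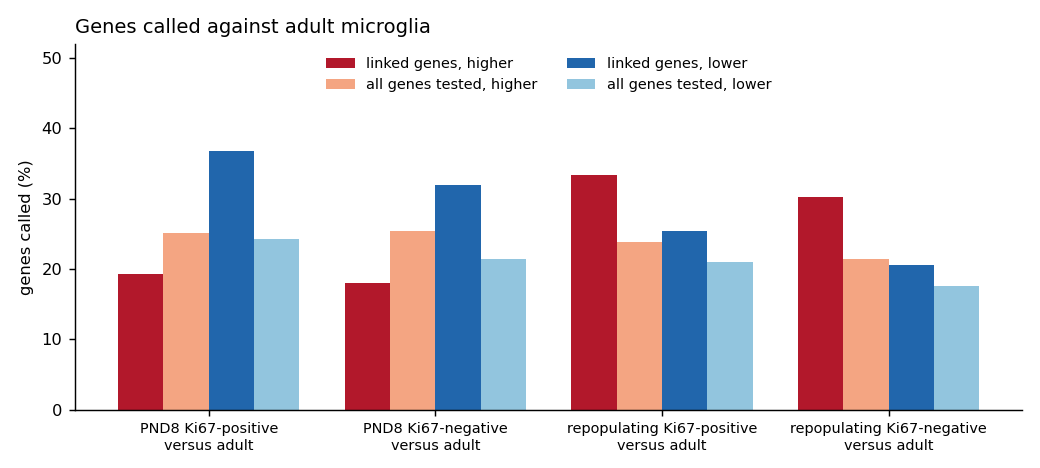
Share of genes called higher (red) or lower (blue) than in adult microglia (percent, vertical axis) in each of the 4 comparisons, dark bars for the 228 linked genes tested and light bars for all 12230 genes tested. The dark blue bars exceed the light blue ones most at PND8, and the dark red bars exceed the light red ones in both repopulating groups.

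Genes were also counted by whether their region recurred in repopulation. Of 93 tested genes with a region in both repopulation lists, 35 were higher (37.6%) and 21 lower (22.6%) in repopulating Ki67-positive cells, against 23.9% and 21.0% of all genes tested. In PND8 Ki67-positive cells 13 of the 93 were higher (14.0%) and 41 lower (44.1%), against 25.1% and 24.3%. Of 85 genes with regions in neither list, 27 were higher (31.8%) and 22 lower (25.9%) in repopulation, and 20 higher (23.5%) and 24 lower (28.2%) at PND8, so that both PND8 shares and the lower share in repopulation lay within 5 percentage points of all genes. Whether these groups of genes differ was not tested. Of the 182 genes with a region standing alone, 57 were higher (31.3%) and 50 lower (27.5%) in repopulation, and 33 higher (18.1%) and 68 lower (37.4%) at PND8.

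Genes with a region within 1 kb of their start are named here because of that position, and several were singled out after their values were seen. Of these 16 genes 14 were tested, and in repopulating Ki67-positive cells 10 were higher than in the adult and 2 lower, where 23.9% and 21.0% of all genes tested were. In PND8 Ki67-positive cells 2 of the 14 were higher and 4 lower, where 25.1% and 24.3% of all genes were. Cybb encodes the catalytic subunit of the phagocyte NADPH oxidase. Its RNA was at 26.4 and 19.5 CPM in the adult, 12.9 and 17.1 in Ki67-negative PND8, 20.1 and 40.1 in Ki67-positive PND8, 262.7 and 354.5 in repopulating Ki67-negative and 373.9 and 434.0 in repopulating Ki67-positive cells. All 4 repopulating libraries were above all others, and the log2 fold change of Ki67-positive cells against adult was 4.13 ± 0.25 (SE, adjusted p = 3.5e-08, edgeR). At PND8 it was not called, but it was higher without the first Ki67-positive PND8 library (log2 0.81, adjusted p = 0.013). The region over the Cybb start (chrX:9469003-9469634) had 22, 55.5, 17.1 and 18.5 tags in cuprizone and 20.9 and 195.1 in repopulation, and it lay 811 bp from an adult or PND8 region. It was one of the joined regions, where an overlapped Cuprizone region itself reached an adult or PND8 region.

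Ctse, the aspartic protease cathepsin E, had RNA at 0.81 and 0.49 CPM in the adult. It reached 1.98 and 4.51 CPM in PND8 Ki67-positive cells, and 20.8 and 18.8 in repopulating ones. It rose by 4.90 ± 0.41 (log2, SE, adjusted p = 6.4e-07, edgeR) in repopulation and by 2.28 ± 0.49 at PND8 (adjusted p = 0.0018). The region over its start (chr1:131637966-131638799) had 35.5, 60.6, 76.8 and 130.3 tags in cuprizone and 48.4 in 1 repopulation list. Chst2, a sulfotransferase of glycan chains, was at 9.94 and 9.16 CPM in the adult and at 35.5 and 21.6 in repopulating Ki67-positive cells (log2 1.59 ± 0.34, adjusted p = 0.0021, edgeR). Its start region held 29.0, 120.1, 51.9 and 121.8 tags in cuprizone, was 103381 bp from an adult or PND8 region and was in no repopulation list.

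Fgf2, a growth factor for many cell types, was near the limit of detection, at 1.04 and 0.12 CPM in the adult and 2.66 and 2.59 in repopulating Ki67-positive cells (log2 2.13 ± 0.81, adjusted p = 0.048, edgeR). Its start region (chr3:37347619-37349441) had 59.0, 106.0, 57.1 and 198.3 tags in cuprizone and 95.6 and 102.7 in repopulation. Hdac9, Ifi211, Sec14l2, Oas1a, Tnfsf8 and Xylt1 were the other 6 genes that rose. Mrgpre and Cspg4 were not called, and Hrh1 and Stra6l did not pass the filter on low counts. Ifi211 and Oas1a belong to families of near-identical genes, so their counts may include reads of relatives.

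Lgals3 and Vegfa were the 2 genes with a region near the start that fell in repopulation. Lgals3 was at 5.32 and 5.50 CPM in the adult, 8.16 and 14.9 in Ki67-negative PND8, 8.58 and 6.70 in Ki67-positive PND8, 1.56 and 0.91 in repopulating Ki67-negative and 1.04 and 1.73 in repopulating Ki67-positive cells. The repopulating libraries lay below all others, with a log2 fold change of -1.98 ± 0.44 in Ki67-positive cells (SE, adjusted p = 0.0027, edgeR). Vegfa was at 7.28 and 4.27 CPM in the adult and at 0.81 and 0.29 in repopulating Ki67-positive cells (log2 -3.31 ± 0.61, adjusted p = 6.5e-04), and it was also lower in PND8 Ki67-positive cells, at 1.98 and 1.62 CPM (adjusted p = 0.013). That last call was lost without the first adult library or without either PND8 library (adjusted p from 0.056 to 0.15). Both regions were absent from the 2 repopulation lists.

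The remaining linked disease-associated genes differed in direction. Ank rose to 291.8 and 338.2 CPM in repopulating Ki67-positive cells from 105.8 and 97.7 in the adult (log2 1.63 ± 0.12, adjusted p = 1.3e-07, edgeR). It was also higher in PND8 Ki67-positive cells, at 131.1 and 140.8 CPM (adjusted p = 0.0088), a call lost without the second adult or the second PND8 library. Cd9 was at 247.0 and 252.9 CPM in the adult and 302.6 and 319.5 in repopulating Ki67-positive cells (log2 0.32 ± 0.10, adjusted p = 0.019), and this call was lost without any 1 of those 4 libraries. Timp2 fell from 515.3 and 534.5 to 305.2 and 257.5 CPM (log2 -0.90 ± 0.09, adjusted p = 5.7e-06). Fabp5 was at 0.69 and 0.49 CPM in the adult, 0.58 and 1.15 in repopulating Ki67-positive and 7.81 and 7.86 in PND8 Ki67-positive cells, where it rose by 3.69 ± 0.59 (log2, adjusted p = 1.8e-04). Over the whole list of 30 genes, 13 were higher and 8 lower in repopulating Ki67-positive cells, where 23.9% and 21.0% of all genes were. In PND8 Ki67-positive cells 15 of the 30 were higher and 0 lower, where 25.1% and 24.3% of all genes were.

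The interferon genes rose in repopulation. Oas1a was at 4.28 and 5.86 CPM in the adult, 15 and 18.8 in Ki67-positive cells at PND8 and 67.7 and 84.0 in those of repopulating mice (log2 3.90 ± 0.29 against adult, adjusted p = 1.9e-07, edgeR). Usp18, which removes the ubiquitin-like ISG15, was at 8.44 and 10.0 CPM in the adult, 6.27 and 8.43 at PND8 and 46.8 and 50.3 in repopulation (log2 2.40 ± 0.17, adjusted p = 1.3e-07). All 20 genes of the interferon list were higher in repopulating Ki67-positive cells, with a median log2 fold change of 2.82, and 8 were higher and 1 lower at PND8 (all genes 23.9% higher in repopulation, 25.1% higher and 24.3% lower at PND8). Acaca rose from 10.9 and 9.53 CPM to 17.2 and 22.3 in repopulation and to 22.7 and 23.6 at PND8, and of 38 tested genes of the lipid list 17 were higher and 6 lower in repopulation and 20 higher and 6 lower at PND8 (all genes 23.9% and 21.0%, and 25.1% and 24.3%). Ctsh, the cysteine protease cathepsin H, was at 236.0 and 236.4 CPM in the adult, 87.2 and 95.3 at PND8 and 320.2 and 347.2 in repopulation, so that the Ki67-positive groups lay on either side of the adult.

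Bhlhe40, Epas1, Cspg4 and Slc1a3 were not called in either comparison of Ki67-positive cells. Bhlhe40 was at 2.89 and 3.05 CPM in the adult and 3.58 and 7.19 in repopulation, and Epas1 at 1.85 and 0.61 and at 2.20 and 1.58. In PND8 Ki67-positive cells Bhlhe40 was at 0.77 and 1.62 CPM (log2 -1.31, adjusted p = 0.086, edgeR), and without the filter on low counts this passed the threshold (adjusted p = 0.026). Cspg4 was at 0.58 and 0.61 CPM in the adult and 0.92 and 1.15 in repopulation. Slc1a3 differed between PND8 replicates, at 38.6 and 361.6 CPM in the Ki67-positive pair and 70.5 and 420.7 in the Ki67-negative pair, and without the second Ki67-positive PND8 library it was lower than in the adult (log2 -2.62, adjusted p = 0.013). Without the filter on low counts Slc1a3 passed the threshold in both comparisons (log2 0.77 in repopulation, adjusted p = 1.9e-15, and -0.25 at PND8, adjusted p = 0.025). Slc1a3 was far above that filter, with 351 and 3130 counts in the PND8 Ki67-positive pair. The fit without the filter also gave far smaller adjusted p values for other well expressed genes (Cybb in repopulation 1.9e-256, edgeR). The calls that Slc1a3 and Bhlhe40 gained there are therefore not read as differences. Summed astrocyte markers, to which Slc1a3 belongs, ranged from 61.2 to 375.4 CPM in the PND8 Ki67-positive libraries and from 99.3 to 429.5 in the PND8 Ki67-negative ones. Slc1a3 itself made up most of each of these sums, so they do not show that the other astrocyte markers differed between replicates in the same way.

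**Figure D5:**
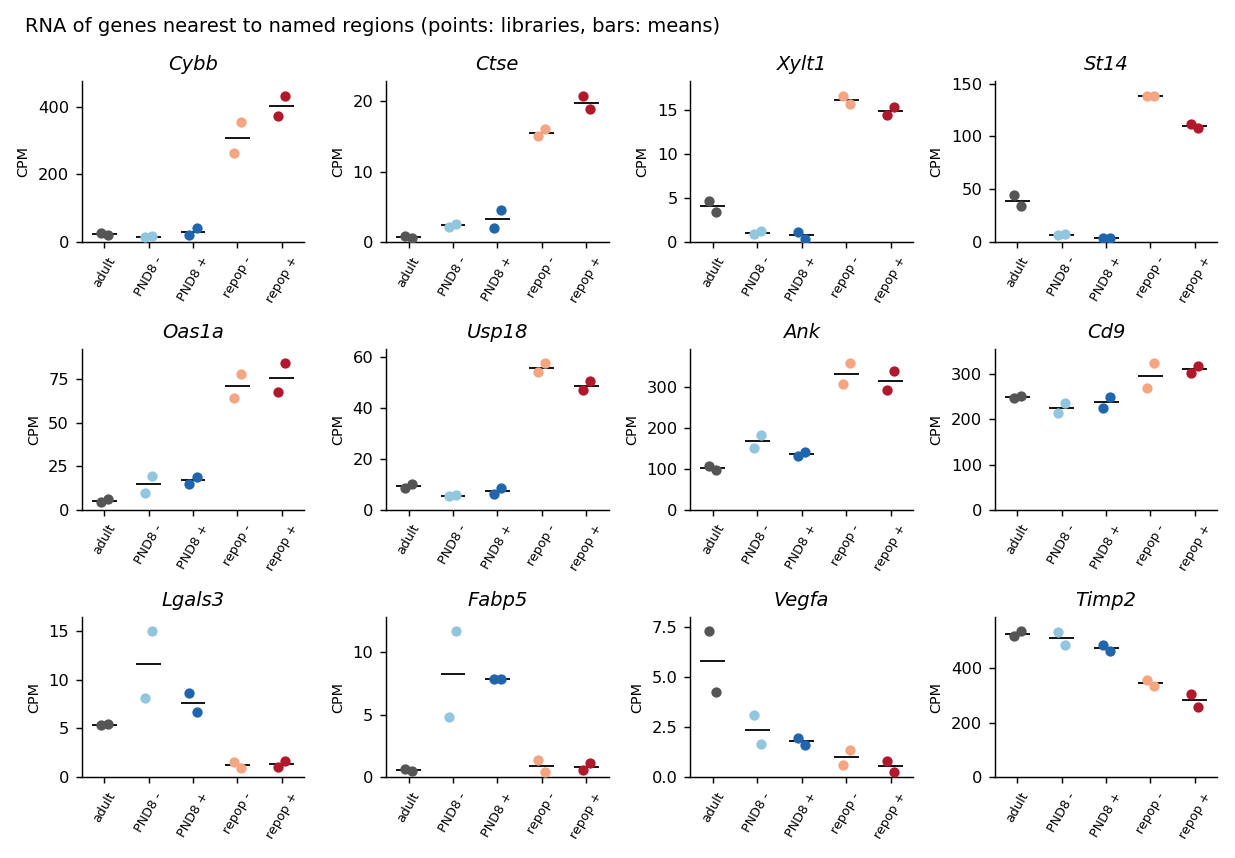
RNA level in CPM (vertical axis, from 0) of 12 genes nearest to named regions, in adult, PND8 and repopulating (repop) microglia, with - and + for Ki67-negative and Ki67-positive cells. Each point is 1 library and each bar the mean of 2, and Cybb, Ctse, Oas1a, Usp18 and Ank are higher in the repopulating groups while Lgals3, Vegfa and Timp2 are lower.

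The linked genes with the largest rises in repopulating Ki67-positive cells were Dcstamp, Ctse, Mxd3, Alcam and Cybb. Dcstamp, a membrane protein needed for the fusion of osteoclasts, had no count in either adult library and 2.43 and 2.73 CPM in repopulation, at least 7.24-fold higher when each adult library is set to a floor of 3 counts. Alcam rose from 1.27 and 0.85 to 17.1 and 24.5 CPM (log2 4.26 ± 0.39, adjusted p = 1.5e-06, edgeR) and was at 0.44 and 0.92 in PND8 Ki67-positive cells. Mxd3, a partner of MAX that is expressed in dividing cells, was at 0.46 and 1.83 CPM in the adult, 20.1 and 15.5 at PND8 and 18.5 and 32.2 in repopulation. Its region, 500 bp wide, held ATAC sites of 111.2 tags at PND8 and 128.1 in repopulation. The 5 linked genes with the largest falls in repopulation were Vegfa, Lgals3, Mthfs, Myo1e and Prkch, and Myo1e, a class I myosin of phagocytosis and adhesion, fell from 52.1 and 43.6 to 18.1 and 19.1 CPM (log2 -1.36 ± 0.20, adjusted p = 1.2e-04).

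At PND8 the 5 largest rises among linked genes were those of Mxd3, Fabp5, Bcar3, Bcl2a1d and Itgb1bp2. Bcl2a1d, a survival factor of the BCL2 family with near-identical copies, was at 1.5 and 0.85 CPM in the adult, 13.5 and 11.8 in Ki67-positive cells at PND8 and 17.8 and 17.8 in those of repopulating mice. Bcar3, an adaptor of integrin signalling, was at 1.85 and 1.22 CPM in the adult, 16.6 and 19.5 at PND8 and 5.20 and 3.02 in repopulation. Itgb1bp2 was at most 2.53 CPM in any library, and its call was lost when the second adult or the first PND8 library was left out. St14, Xdh, Tnfsf8 and Xylt1 were among the 5 largest falls. Xdh, xanthine dehydrogenase, was at 3.35 and 3.66 CPM in the adult and at 0.55 and 0.12 in PND8 Ki67-positive cells (log2 -3.32 ± 0.89, adjusted p = 0.0070), a call lost without the second PND8 library.

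Xylt1 and St14, both named for their falls at PND8, took opposite courses in the 2 states. Xylt1 was at 4.62 and 3.42 CPM in the adult, 0.87 and 1.19 in Ki67-negative PND8, 1.1 and 0.35 in Ki67-positive PND8, 16.6 and 15.7 in repopulating Ki67-negative and 14.5 and 15.4 in repopulating Ki67-positive cells. Adult, PND8 and repopulating libraries did not overlap. St14, the membrane serine protease matriptase, was at 44.0 and 33.8 CPM in the adult, 3.52 and 3.35 in Ki67-positive cells at PND8 and 111.3 and 107.9 in those of repopulating mice. Its region, inside the gene, had 13.5, 46.9, 42.0 and 103.9 tags in cuprizone and was in no repopulation list.

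Markers of other cells moved with the RNA groups. The 16 monocyte or neutrophil markers summed to 897 to 1050 CPM in the adult, 408 to 586 at PND8 and 725 to 871 in repopulation. Of 11 tested, 8 were lower and 1 higher in repopulating Ki67-positive cells, and 9 lower and 2 higher in each PND8 group (lower among all genes 21.0%, and 24.3% and 21.4%). Their median log2 fold change was -6.35 in repopulating Ki67-positive cells and -4.35 in each PND8 group, a larger fall than that of the sums. The 11 border macrophage markers summed to 1420 to 1528 CPM in the adult, 1930 to 2308 at PND8 and 861 to 1102 in repopulation. Erythroid markers summed to 23.8 to 79.1 CPM at PND8 and at most 7.94 elsewhere, and neuron markers to at most 12.6 CPM in any library. Their part in the results on linked genes was not tested. Of the cell cycle list, 28 of 30 genes were higher than in the adult in each of the 4 groups, the Ki67-negative ones included, where 21.5% to 25.4% of all genes were.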

How the data were processed

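The members, gene lists and alternatives were chosen with earlier results of these data known. Per the submitters' processing notes the tools were STAR 2.7.0f, Bowtie2 2.3.4.1, HOMER 4.11 and DESeq2, with builds mm10 and GRCm38. The region lists are as the authors deposited them, called per library, and hold a tag signal normalised to 10000000 tags, a score, and a fold (ratio) over input or local background, per the file headers. In the H3K27ac lists the headers of the last columns were displaced, and the fold over input was identified by its match to the ratio of the tag columns. The authors deposited RNA counts per gene and TPM values, which served only an alternative.

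Regions overlapped where they shared 1 bp, and each was linked to the nearest start in the count table within 100 kb. Counts were fitted with edgeR 4.0.16 (TMM factors, filterByExpr by group, quasi-likelihood test, Benjamini-Hochberg adjustment over 12230 genes), with all 10 libraries in 5 groups, and checked on simulated data. SE is the log2 fold change divided by the square root of F. The labels call the 2 RNA libraries per group independent replicates. Alternatives used DESeq2 1.42.0 and limma 3.58.1 on log2(TPM + 1) and log2(TPM + 0.1). Named regions were the 10 of lowest summed rank, the 10 of lowest summed rank in both repopulation lists, and those of listed genes. Named genes were the 5 largest rises and 5 largest falls per Ki67-positive comparison, and the linked genes of the lists, and 1 gene that met the rule is not reported here. Motif shares are over all RefSeq promoter windows, since no genome was used here. A count of 0 was set to a floor of 3 counts. Input libraries were not analysed here.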

Additional observations from a re-analysis of the deposited data

Results flagged for a closer look

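For 4 of the named genes the calls against adult went in opposite directions in repopulating and PND8 Ki67-positive cells. Among all 228 linked genes tested, 16 were called higher in repopulation and lower at PND8, and 1 the reverse. The share over all genes was not counted. St14, Xylt1 and Tnfsf8 were named for their falls at PND8, so the same values partly chose these 4 genes. For each of the 4 the direct contrast of the 2 states was past the threshold (edgeR, adjusted over all genes). It compares no adult library, but its estimate of the spread came from all 10 libraries. The log2 difference, repopulating minus PND8, was 4.99 ± 0.17 (SE) for St14 (adjusted p = 2.7e-10), 4.32 ± 0.39 for Xylt1 (adjusted p = 2.3e-06), 4.62 ± 0.46 for Tnfsf8, the CD30 ligand (adjusted p = 6.4e-06) and 1.87 ± 0.10 for Ctsh (adjusted p = 2.2e-08). Against adult, the log2 fold changes in repopulation and at PND8 were 1.49 and -3.50 for St14, 1.88 and -2.44 for Xylt1, 1.66 and -2.96 for Tnfsf8, and 0.50 and -1.37 for Ctsh. Of these genes, the Tnfsf8 region (joined) and 2 of the 4 Xylt1 regions within 100 kb of its start were in both repopulation lists. The St14 and Ctsh regions were in neither.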

How the results depend on the processing

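The number of regions was 330 to 336 with another Cuprizone list as the start, 294 with at least 50% of the region overlapped and 305 with no adult or PND8 region within 1 kb. It was 307 with regions standing alone, an alternative chosen after seeing the data. Leaving out 1 required or excluded list gave 376 to 527, and it cannot lower the number, so it is no check of stability. The count in both repopulation lists, which cannot fall either, was 134 to 185 when 1 list was left out. Stricter calls left 49 regions in the top 50% of the starting list by score (25 in both repopulation lists) and 57 at 8 times the input or more (30 in both). With only the lists of the same header code, which include no adult list, 1096 regions were found (503 in both). The top 50% of the ATAC and H3K4me3 lists by score left 119 regions with a repopulation open site and 4 with adult H3K4me3, and 30 lay within 2.5 kb of a start. With starts within 20 kb, 122 linked genes were tested. The counts higher and lower were then 24 and 40 in Ki67-positive PND8, 24 and 33 in Ki67-negative PND8, 40 and 25 in repopulating Ki67-positive and 39 and 18 in repopulating Ki67-negative cells. With a fold of at least 2 and starts within 100 kb the counts were 15 and 25, 20 and 22, 39 and 9, and 38 and 5 in the same order. Leaving out 1 library left 1 in its group, and in most such fits both the counts and the shares of all genes called were lower. With the replicate number as a block (replicate block) they were 49 and 85, 45 and 80, 76 and 67, and 71 and 55, and the fall of Bhlhe40 at PND8 passed the threshold (log2 -1.37, adjusted p = 0.026). The numbers do not pair adult with other libraries, since their deviations from the group means correlated at -0.0084 to 0.011. They correlated at 0.34 between the 2 PND8 groups and 0.26 between the 2 repopulating groups. DESeq2, library sizes only, no filter, limma and starts at any distance kept every count within 1.5 times. The shares did not all keep their distance from all genes. Without the filter, 18.5% of linked genes were higher in Ki67-positive PND8 against 18.4% of all genes. In Ki67-negative PND8 these shares were 16.6% and 18.8%. Over 572 values of 29 named genes in 2 comparisons, 0 were reversed, 22 lost a call and 14 gained one. The 2 RNA libraries per group and 1 ATAC library per state limit the precision.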
